A study of Homo sapiens with 4 samples.

Results

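The genes described here are RAC1 and members of the machinery through which it acts on actin, the WAVE and ARP2/3 complexes. They were 10 genes chosen by symbol, RAC1, WASF1, WASF2, WASF3, CYFIP1, ACTR2, ACTR3, ARPC1B, ARPC2 and ARPC5, of 15221 genes with values, and 27 transcripts made up their counts. The rule for finding them uses only the gene symbols of the deposited table, but the genes were proposed with earlier results of these data known. RNA-seq compared 2 libraries of PANC-1, an untransduced human cell line from a pancreatic ductal adenocarcinoma, with 2 libraries of PZT-2. PZT-2 is a single clone of PANC-1 selected with puromycin after lentiviral delivery of shRNAs, driven by a U6 promoter, against H2A.Z.1 and both isoforms of H2A.Z.2, which are forms of the histone variant H2A.Z. Both lines were at passage p12-p13 and grew in DMEM with 10% FBS. Because PANC-1 carried no vector and PZT-2 is 1 clone, the knockdown, the clone, the transduction and the selection cannot be told apart in this comparison. The study calls its libraries biological replicates, but the labels do not say whether they came from separate cultures, so p-values measure the spread between these libraries, which may be technical.

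RAC1 is a small GTPase that is switched on by exchange factors and switched off by GTPase-activating proteins. Active RAC1 binds CYFIP1 in the WAVE complex, which holds 1 WASF (WAVE) protein together with NCKAP1, an ABI protein and BRK1, and frees the WASF protein to bind the ARP2/3 complex. ARP2/3 then starts a new actin filament on the side of an existing one, and the branched network pushes the front of a moving cell forward. The comparison asks how RNA of these genes differed in cancer cells with less H2A.Z. The study sequenced PZT-2 as the clone with the strongest senescent phenotype and reports that its cells replicated very little. The lines thus differ in growth as well, and the part of this difference in the values was not tested.

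The libraries held between 12861534 and 15717659 estimated counts. H2AFZ, the gene of H2A.Z.1, was at 6386 and 6031 normalized counts (counts scaled to the mean library) in PANC-1 and at 2211 and 2258 in PZT-2, which is a log2 change of -1.47 ± 0.06 (SE) with an adjusted p of 6.25e-05 in the quasi-likelihood test of edgeR, adjusted over all genes by the method of Benjamini and Hochberg. H2AFV, which encodes both isoforms of H2A.Z.2, fell by 0.36 ± 0.06 on the log2 scale (adjusted p = 0.00573), a call that was lost without PZT-2 replicate 1 (adjusted p = 0.0601) and with the most abundant transcript of each gene alone (adjusted p = 0.0669). The labelled cell type was checked against 6 epithelial and duct markers. KRT8, KRT18, KRT19 and CDH1 were lower in PZT-2, CDH1 at 116 and 148 against 0 and 18.8 normalized counts, and KRT7 and EPCAM, between 82.0 and 143 in all 4 libraries, did not pass the test. Summed, the 6 markers were at 86678 and 85661 normalized counts in PANC-1 and 45141 and 44353 in PZT-2. Of 12 markers of other cell types, 9 have no value in the table, among them PTPRC of blood cells, VWF of endothelium and DCN of fibroblasts, and the summed level of CD68, PECAM1 and COL1A1 ranged from 2113 to 2188 in PANC-1 and from 1766 to 1881 in PZT-2, COL1A1 being called lower. In RNA from a whole culture, fewer cells of a type and less RNA per cell cannot be told apart. The epithelial markers moved with the comparison, as did the median change of genes on some chromosomes, and the part of either in the results was not tested. A chromosome median does not tell whether all of a chromosome moved or only a stretch of it. Genes of chromosome 3 had a median log2 fold change of 0.43, against 0.12 on chromosome 2, 0.24 on chromosome 15, -0.09 on chromosome 7, -0.29 on chromosome X and 0.0012 over all 15101 genes tested.

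RAC1 is read as a pair of transcripts that differ by a cassette exon. The exon is shown because the counts of the longer form, RAC1b, rest on reads that reach it. It is exon 4 of 7 of NM_018890, lies in the coding sequence at chr7:6398662-6398718 on the plus strand of GRCh38 (GENCODE 29 transcripts) and has 57 bases, which keep the reading frame and add 19 residues. Both forms are given over the junction with 15 bases on each side, and capitals mark the cassette exon.
RAC1 without the exon (NM_006908): tcctatccgcaaacagatgtgttcttaatt
RAC1b with the exon (NM_018890): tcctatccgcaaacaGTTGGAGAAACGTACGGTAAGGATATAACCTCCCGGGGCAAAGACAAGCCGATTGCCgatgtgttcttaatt

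Among the 10 genes, WASF3, ARPC5 and ACTR2 were higher in PZT-2 and RAC1 was lower, and the other 6 did not pass the test. WASF3 rose 2.34-fold, ARPC5 1.35-fold and ACTR2 1.24-fold, and RAC1 fell to 0.835 of its level in PANC-1. The calls make up 4 of 10 genes, where 28.4% of all genes tested were called, 14.7% as higher and 13.7% as lower. Counts in both PZT-2 libraries lay above those of both PANC-1 libraries for 7 genes and below them for 1, where the libraries of the lines did not overlap in 66.3% of all genes. The median log2 fold change of the 10 genes was 0.12. RAC1, ACTR2 and WASF3 are among the genes that the study itself picked from these libraries, so their direction is not independent evidence. With 2 libraries a line, an exact permutation test (two-sided) cannot go below p = 0.3333, so single genes were judged by the fit over all genes.

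**Figure D1:**
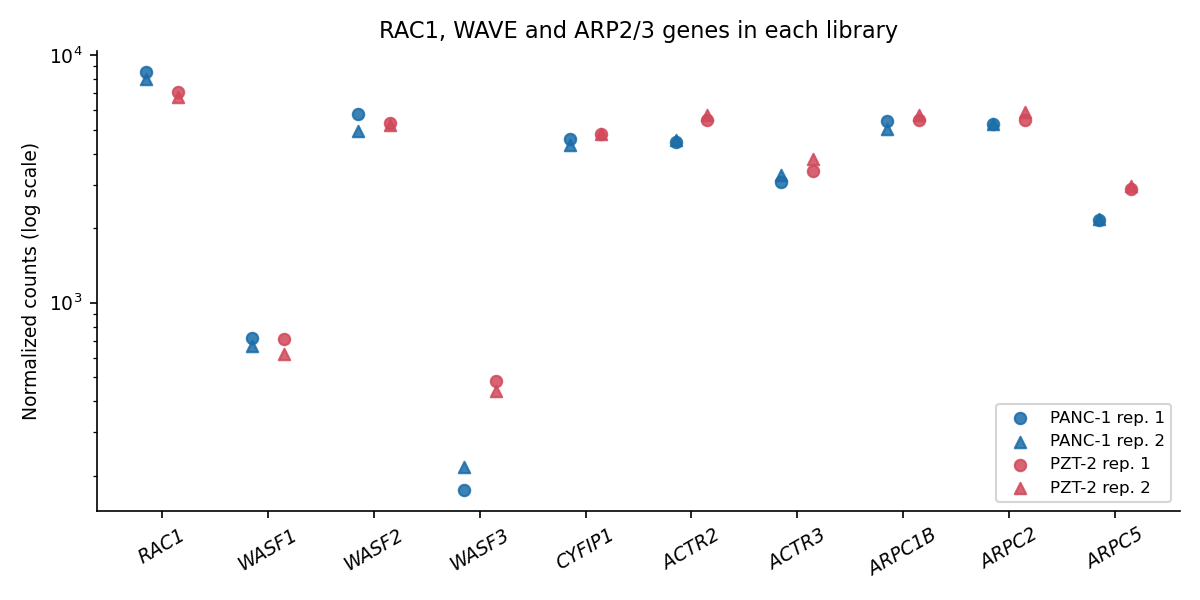
Normalized counts of the 10 genes (log axis) in each library, with PANC-1 in blue, PZT-2 in red, circles for replicate 1 and triangles for replicate 2. RAC1 sits lower in both PZT-2 libraries, while WASF3, between 175 and 483, has PZT-2 libraries well above those of PANC-1.

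RAC1 was at 8568 and 8039 normalized counts in PANC-1 and at 7123 and 6747 in PZT-2. The lines did not overlap, PZT-2 being the lower one. The log2 fold change was -0.26 ± 0.06 (SE, 95% interval -0.39 to -0.12, adjusted p = 0.0166, edgeR), where the median gene of chromosome 7 changed by -0.09. The call was lost without PZT-2 replicate 1 (adjusted p = 0.0645), without PZT-2 replicate 2 (adjusted p = 0.143) and with the most abundant transcript alone (adjusted p = 0.0758). Its close relative RAC3 was at 620 and 613 normalized counts in PANC-1 and at 676 and 769 in PZT-2, with an adjusted p of 0.0961. On the scale of kallisto's TPM values, which divides counts by transcript length, RAC1 made up 84.9% and 84.3% of the summed RAC1, RAC2 and RAC3 level in PANC-1 and 81.1% and 78.2% in PZT-2. The share of RAC3 went from 14.5% and 15.3% to 18.3% and 21.2%, a description without a test, and RAC2 stayed at 0.600% or less in each library.

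The cassette form, RAC1b, which is described as more readily loaded with GTP than the common form, was at 39.2 and 55.3 TPM in PANC-1 and at 41.8 and 35.0 TPM in PZT-2. It was 8.15% and 12.2% of RAC1 in PANC-1 and 10.5% and 9.30% in PZT-2, so the shares of the lines overlapped and the highest was that of PANC-1 replicate 2. The log2 fold change of NM_018890 was -0.29 (adjusted p = 0.626) and that of NM_006908, the form without the exon, was -0.26 (adjusted p = 0.176, edgeR over all transcripts).

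The 3 WASF genes encode the proteins that carry the ARP2/3-binding end of the WAVE complex. WASF3 was at 175 and 217 normalized counts in PANC-1 and at 483 and 440 in PZT-2. Each PZT-2 library held more than either PANC-1 library, and the log2 fold change was 1.23 ± 0.13 (95% interval 0.92 to 1.53, adjusted p = 0.00128). WASF2, the most abundant of the 3 per length, was at 5793 and 4941 in PANC-1 and at 5327 and 5199 in PZT-2. Its libraries overlapped, and its log2 fold change of -0.03 had an interval from -0.22 to 0.17 (adjusted p = 0.837). WASF1 was at 720 and 670 in PANC-1 and at 716 and 621 in PZT-2. Here too the libraries overlapped, with a log2 fold change of -0.05 and an interval from -0.28 to 0.17 (adjusted p = 0.711).

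WASF3 remained the smallest contributor to the family despite its rise. On the TPM scale it made up 2.75% and 3.89% of the summed WASF level in PANC-1 and 7.75% and 7.42% in PZT-2. WASF2 held 78.9% and 76.6% in PANC-1 and 73.6% and 75.7% in PZT-2, and WASF1 between 16.9% and 19.5% in all 4 libraries. The summed WASF level was 167 and 147 TPM in PANC-1 and 163 and 154 TPM in PZT-2, and these ranges overlapped.

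WASF3 counts came from 2 transcripts. NM_006646 was at 96.7 and 138 normalized counts in PANC-1 and at 337 and 352 in PZT-2, and NM_001291965 was at 78.7 and 79.9 in PANC-1 and at 145 and 86.7 in PZT-2. The share of NM_006646 in the TPM of WASF3 was 55.1% and 63.1% in PANC-1 and 70.0% and 80.2% in PZT-2. Their effective lengths are 4693 and 4684 bases, and how well reads tell them apart was not tested. The log2 fold change was 1.55 for NM_006646 (adjusted p = 0.0971) and 0.54 for NM_001291965 (adjusted p = 0.586), and the difference between them was not tested.

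**Figure D2:**
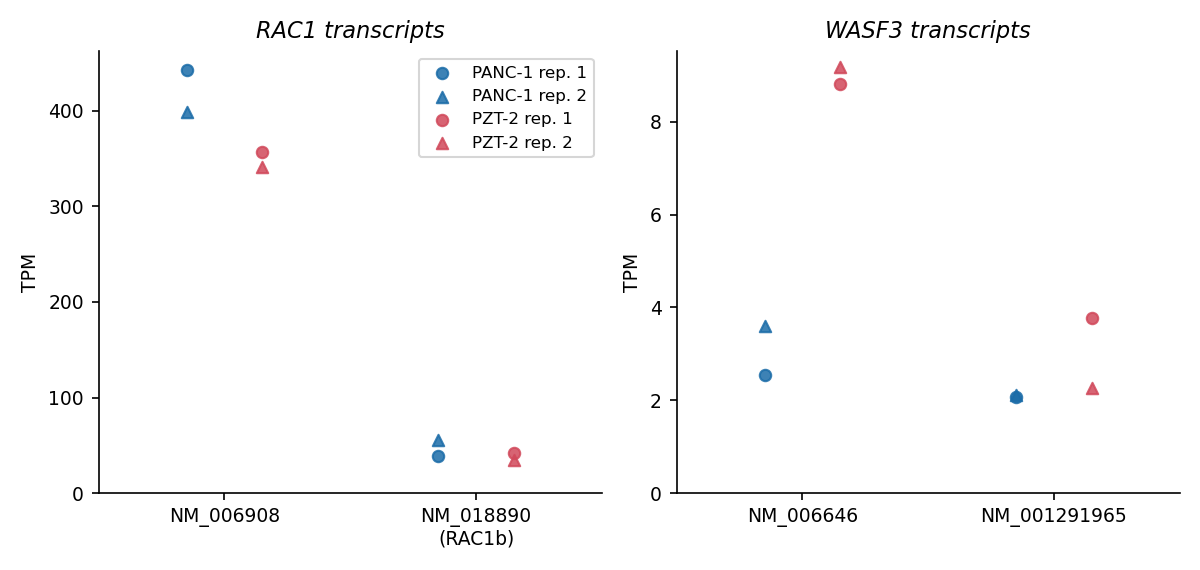
TPM of the transcripts of RAC1 (left) and WASF3 (right) in each library, with PANC-1 in blue, PZT-2 in red, circles for replicate 1 and triangles for replicate 2. NM_006908 of RAC1 lies lower in both PZT-2 libraries and RAC1b overlaps between the lines, while NM_006646 of WASF3 goes from 2.54 and 3.61 TPM in PANC-1 to 8.82 and 9.17 TPM in PZT-2.

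CYFIP1, the subunit that RAC1 binds, was at 4570 and 4338 normalized counts in PANC-1 and at 4816 and 4805 in PZT-2. The libraries did not overlap, but the log2 fold change of 0.11 (95% interval -0.02 to 0.24) did not pass the test (adjusted p = 0.169), and the median gene of its chromosome 15 was at 0.24. Most CYFIP1 counts belonged to NM_014608, with 86.1% and 84.3% of its TPM in PANC-1 and 88.2% and 90.1% in PZT-2. The next transcript, NM_001324123, went from 11.1% and 13.6% to 7.88% and 6.45%, with a log2 fold change of -0.68 and an adjusted p of 0.149.

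The partners of WASF and CYFIP1 in the complex moved in both directions. BRK1, the smallest subunit, was at 1394 and 1320 normalized counts in PANC-1 and at 1841 and 1909 in PZT-2, which is a log2 change of 0.47 (adjusted p = 0.00305) beside a chromosome 3 median of 0.43. NCKAP1, the large scaffold that pairs with CYFIP1, was at 2491 and 2748 in PANC-1 and at 2214 and 2141 in PZT-2. This fall of 0.27 on the log2 scale passed the test (adjusted p = 0.0288) on a chromosome whose median was above 0, but not without PZT-2 replicate 1 (adjusted p = 0.112) or PZT-2 replicate 2 (adjusted p = 0.180). The adaptor ABI1 was at 412 and 446 in PANC-1 and at 410 and 446 in PZT-2, nearly the same values in both lines (95% interval of the log2 change -0.23 to 0.22). Its sister ABI2 was at 889 and 829 against 1001 and 984 (a log2 change of 0.21 with an adjusted p of 0.0642, or of 0.0406 without PANC-1 replicate 1). CYFIP2, NCKAP1L and ABI3 have no value in the table. In all, 2 of the 8 WAVE complex genes tested were higher and 1 was lower, where 14.7% of all genes were called higher and 13.7% lower.

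The ARP2/3 complex consists of the actin-related proteins ARP2 and ARP3 and a set of ARPC subunits. ACTR2, the gene of ARP2, was at 4460 and 4527 normalized counts in PANC-1 and at 5468 and 5700 in PZT-2. The PZT-2 libraries lay clearly above, with a log2 fold change of 0.31 ± 0.05 (95% interval 0.19 to 0.44, adjusted p = 0.00623), where the median of chromosome 2 was 0.12. Without PZT-2 replicate 2 the call was lost (adjusted p = 0.0735). ACTR3, the gene of ARP3, was at 3059 and 3272 in PANC-1 and at 3413 and 3788 in PZT-2. Both PZT-2 values were higher, but the log2 fold change of 0.19 (95% interval 0.01 to 0.36) had an adjusted p of 0.101, which passed only without PANC-1 replicate 2 (adjusted p = 0.0279) among the 14 alternatives run.

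ARPC5, a small subunit at the edge of the complex, was at 2164 and 2168 normalized counts in PANC-1 and at 2882 and 2957 in PZT-2. The replicates of each line lay close together, and the log2 fold change was 0.43 ± 0.05 (95% interval 0.30 to 0.56, adjusted p = 0.00251), where the median gene of chromosome 1 was at -0.01. ARPC5 and WASF3 kept their calls in all 14 alternatives run. ARPC5L, which takes the place of ARPC5 in some complexes, was at 792 and 737 in PANC-1 and at 949 and 978 in PZT-2 (a log2 change of 0.33 with an adjusted p of 0.0155). This call was lost without PZT-2 replicate 1 (adjusted p = 0.0641) or PZT-2 replicate 2 (adjusted p = 0.104). ARPC5 made up 77.1% and 78.4% of the TPM of this pair in PANC-1 and 78.9% and 78.8% in PZT-2, so the balance between them moved by less than 2 percentage points.

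ARPC2, which helps to form the core of the complex with ARPC4, was at 5247 and 5243 normalized counts in PANC-1 and at 5485 and 5906 in PZT-2. Its log2 fold change of 0.12 (95% interval -0.02 to 0.25) had an adjusted p of 0.165. ARPC4 was at 1801 and 1718 in PANC-1 and at 2502 and 2678 in PZT-2, which is a log2 change of 0.56 (adjusted p = 0.00184) beside a chromosome 3 median of 0.43, and 0.177 was its adjusted p with the most abundant transcript alone. ARPC1B was at 5402 and 5033 in PANC-1 and at 5487 and 5736 in PZT-2. Its log2 fold change of 0.11 (95% interval -0.03 to 0.25, adjusted p = 0.229) did not pass the test, and ARPC1A, which can stand in for it, was at 0.0014 (adjusted p = 0.993). ARPC1B held 57.8% and 58.1% of the TPM of this pair in PANC-1 and 59.2% and 60.3% in PZT-2. ARPC3 was at 3914 and 4252 in PANC-1 and at 3810 and 3830 in PZT-2, with an adjusted p of 0.284 that fell to 0.0457 without PANC-1 replicate 1.

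The lesser ARP3 genes had few reads. ACTR3B ranged from 130 to 157 normalized counts and ACTR3C from 36.2 to 49.5 over the 4 libraries, and neither passed the test (adjusted p = 0.695 and 0.628). With the most abundant transcript alone, edgeR called ACTR3B higher, at a log2 change of 1.05 (adjusted p = 0.0430). ACTR3 held 86.4% to 87.8% of the TPM of the 3 genes in each library. Of the 11 ARP2/3 genes tested, 4 were higher and 0 were lower by edgeR, where it called 14.7% of all genes higher and 13.7% lower. Their log2 fold changes were above 0 for 9 genes and below 0 for 2, with a median of 0.12. An unadjusted p under 0.05 was reached by 5 genes with a fold change above 0 and by 0 below it, where 20.4% and 20.2% of all genes reached it in these directions. DESeq2 also called 4 higher and 0 lower, where it called 12.5% of all genes higher and 11.6% lower.

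**Figure D3:**
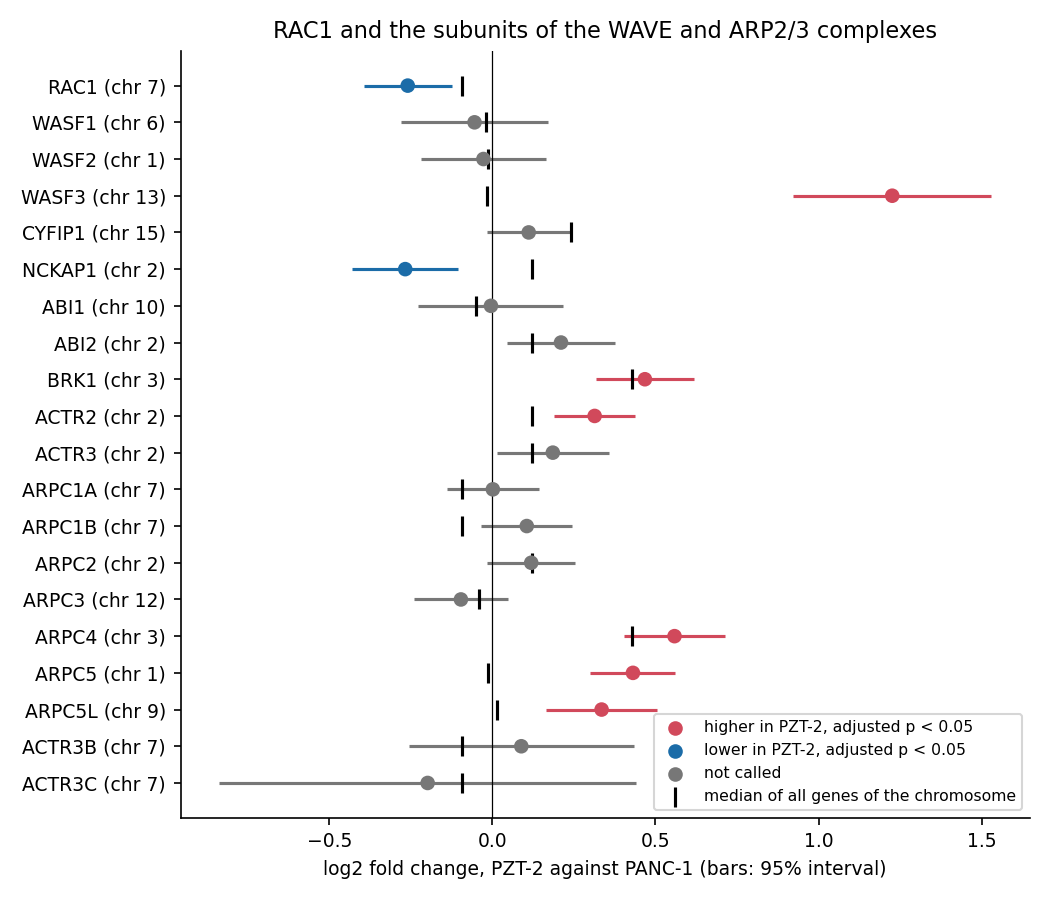
Log2 fold change of PZT-2 against PANC-1 with its 95% interval for RAC1 and each WAVE and ARP2/3 gene tested, red where higher and blue where lower by adjusted p, grey where not called, with a black tick at the median of all genes of the same chromosome. WASF3 lies farthest from 0 at 1.23, RAC1 and NCKAP1 lie below 0, and the intervals of BRK1 and ARPC4 include the chromosome 3 median of 0.43.

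Leaving out 1 library at a time, WASF3 kept a log2 fold change between 1.08 and 1.39 and ARPC5 one between 0.41 and 0.45. RAC1 ranged from -0.31 to -0.22 and ACTR2 from 0.28 to 0.34, the same direction each time. WASF1 went from -0.16 to 0.05 and WASF2 from -0.15 to 0.09, and both changed sign. Fewer of the 10 genes were called when a PZT-2 library was left out, and so were fewer of all genes tested.

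**Figure D4:**
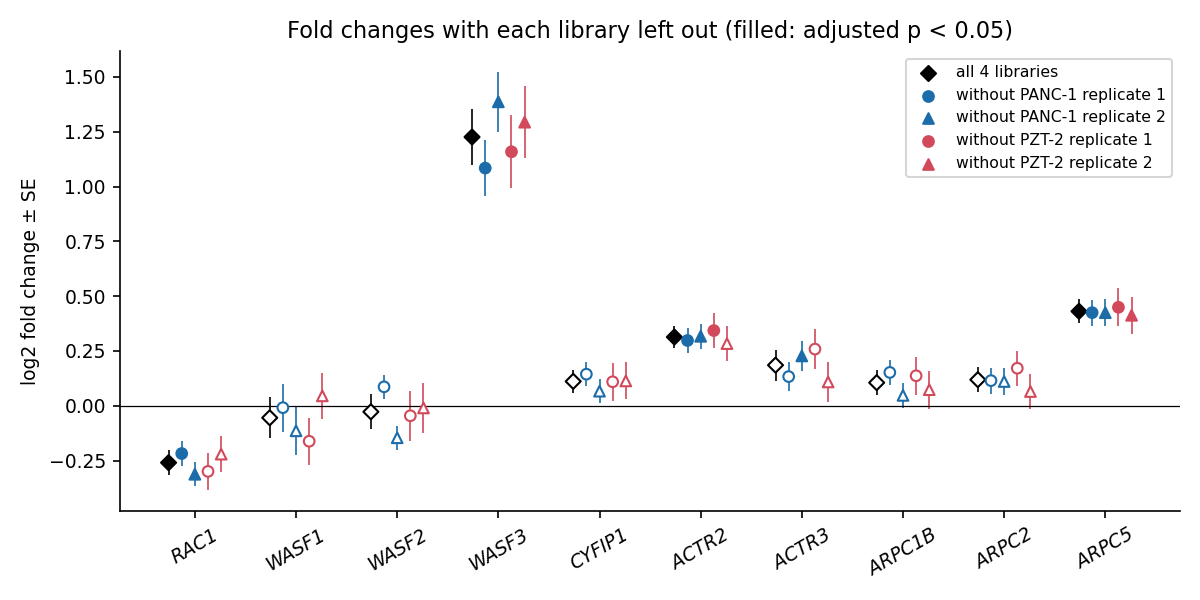
Log2 fold change ± SE of the 10 genes with all 4 libraries (black) and without each library in turn (blue, a PANC-1 library left out, and red, a PZT-2 library left out), filled where the adjusted p is under 0.05. WASF3 and ARPC5 are filled throughout, RAC1 is open whenever a PZT-2 library is missing, and WASF1 and WASF2 cross 0.

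At the level of transcripts, 0 of the 27 passed edgeR's test, where 0.148% of all 30403 transcripts tested did. An unadjusted p under 0.05 was reached by 8 of the 27 and by 18.5% of all transcripts. DESeq2 called 8 of the 27, 6 higher and 2 lower, where it called 14.4% of all transcripts. With at least 10 counts in all 4 libraries, 20 of the 27 could be tested and edgeR called 3 of them, all higher, where it called 5.86% of all transcripts left. The main transcripts of ARPC5 and ACTR2, NM_005717 and NM_005722, had log2 fold changes of 0.42 (adjusted p = 0.0714) and 0.31 (adjusted p = 0.0971) in edgeR and made up nearly all of the TPM of their gene in each library, with the lowest share, 99.0%, for ARPC5 in PZT-2 replicate 1. A minor ARPC2 transcript, NM_005731, was at 180 and 231 normalized counts in PANC-1 and at 378 and 296 in PZT-2 (a log2 change of 0.71 with an adjusted p of 0.219). WASF1 was split over 4 transcripts, and its main one, NM_001024936, held 67.7% and 63.1% of its TPM in PANC-1 and 65.6% and 43.5% in PZT-2, so PZT-2 replicate 2 stood apart from the others.

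Per length, ARPC2, ARPC1B and RAC1 were the most abundant RNAs of the 10 in PANC-1, at 478, 475 and 468 TPM on average, and the ranges of the 3 overlapped. They stood at or above the 97.8 percentile of all genes by mean TPM over all 4 libraries. ACTR2 (147 TPM), ARPC5 (139 TPM), WASF2 (122 TPM), CYFIP1 (81.3 TPM) and ACTR3 (70.4 TPM) followed, each without overlap with its neighbours. WASF1 was at 29.7 TPM and WASF3 at 5.16 TPM. By mean TPM over all 4 libraries, PZT-2 included, WASF3 stood at the 45.0 percentile of all genes. In PZT-2 the averages were 516 TPM for ARPC2, 507 TPM for ARPC1B and 387 TPM for RAC1, and RAC1 no longer overlapped with the other two. ARPC5 (185 TPM) and ACTR2 (181 TPM) overlapped there, and WASF3 reached 12.6 and 11.4 TPM, still the lowest.

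The genes around this axis were examined as 9 lists written from general knowledge, in which 131 of 149 genes were tested. Of these, 36 were higher and 27 lower in PZT-2, together 48.1% of the genes tested, with a median log2 fold change of 0.06, where 28.4% of all genes were called, 14.7% higher and 13.7% lower. When a PZT-2 library was left out, fewer genes of these lists were called, and so were fewer of all genes tested. On chromosome 3, 7 of 9 tested genes of these lists were called and all 7 were higher. Of the 833 genes tested on that chromosome, 48.4% were called higher. Without that chromosome 29 of 122 genes of the lists were higher and 27 lower. The shares of all genes given above include chromosome 3, and shares without it were not computed.

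**Figure D5:**
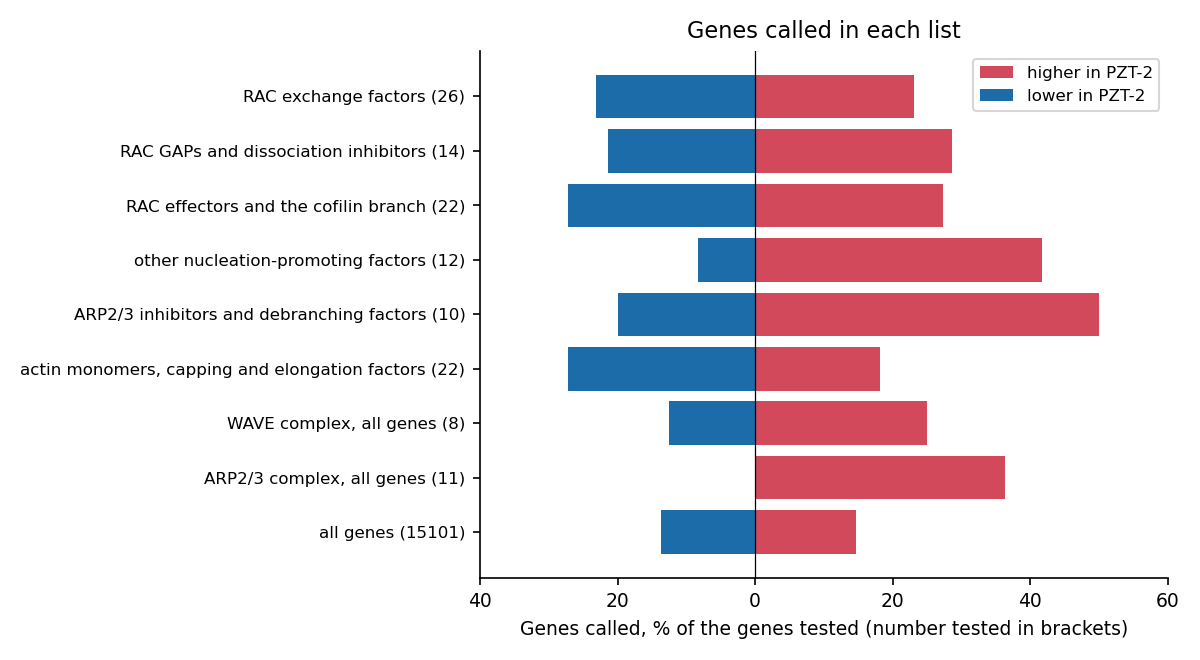
Percent of the genes tested in each list shown that were called higher (red, to the right) or lower (blue, to the left) in PZT-2, with the number tested in brackets and all genes at the bottom. The list of ARP2/3 inhibitors and debranching factors, which includes coronins, has the highest share of higher genes, 5 of 10. The coronins CORO2A, CORO2B and CORO7 are among these 5, and the 2 lower genes are CORO1B and PICK1. The ARP2/3 complex is the list with no lower gene.

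Exchange factors load RAC with GTP, but the list of them also held adaptors and factors better known for other GTPases. It gave 6 higher and 6 lower of 26 tested, where 14.7% of all genes were called higher and 13.7% lower. TIAM1, an exchange factor of RAC, was at 94.5 and 79.5 normalized counts in PANC-1 and at 196 and 204 in PZT-2 (a log2 change of 1.21 with an adjusted p of 0.00210). Its relative TIAM2 was at 241 and 230 against 382 and 318 (a log2 change of 0.57 with an adjusted p of 0.0153, or of 0.0942 without PZT-2 replicate 1). DOCK4 rose from 206 and 255 to 415 and 468 counts, a log2 fold change of 0.93. ARHGEF6, the exchange factor that works with PAK kinases, went the other way, from 397 and 406 to 154 and 139 counts (a log2 change of -1.45 with an adjusted p of 4.50e-04, chromosome X median -0.29). SOS2 was at 331 and 279 against 209 and 163 counts (adjusted p = 0.0177, and 0.0988 without PZT-2 replicate 2). FARP1 was at 1119 and 1001 against 880 and 774 (adjusted p = 0.0310, and 0.180 without PZT-2 replicate 2). DOCK10, chosen after its values were seen because it lies under the count of the naming rule, was at 59.6 and 56.9 counts in PANC-1 and at 5.03 and 3.95 in PZT-2.

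Among 14 genes that switch RAC off or hold it in the cytosol, 4 were higher and 3 lower. The GTPase-activating proteins CHN1 and SH3BP1 rose by 0.83 and 0.81 on the log2 scale, CHN1 from 142 and 130 to 255 and 227 normalized counts and SH3BP1 from 127 and 136 to 237 and 226. ABR, which has both an exchange and a GTPase-activating domain, was at 4509 and 4512 in PANC-1 and at 5526 and 5636 in PZT-2 (a log2 change of 0.31 with an adjusted p of 0.00558, or of 0.0672 without PZT-2 replicate 2). SRGAP1 fell by 0.70, from 747 and 724 to 476 and 429 counts. RACGAP1, which serves in cell division, had a log2 change of -0.22 (adjusted p = 0.0340, and 0.223 without PZT-2 replicate 1 or 0.112 without PZT-2 replicate 2). ARHGDIA, the main dissociation inhibitor, had one of -0.20 (adjusted p = 0.0422), and this call was lost without PANC-1 replicate 1 (adjusted p = 0.0546), PZT-2 replicate 1 (adjusted p = 0.146) or PZT-2 replicate 2 (adjusted p = 0.244).

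Effectors of RAC and genes of the cofilin branch gave 6 higher and 6 lower of 22 tested. The shares over all genes were 14.7% higher and 13.7% lower. LIMK1, the kinase that inactivates cofilin, was at 1616 and 1530 normalized counts in PANC-1 and at 1869 and 1929 in PZT-2 (a log2 change of 0.27 with an adjusted p of 0.0194, or of 0.0883 without PZT-2 replicate 1 or 0.144 without PZT-2 replicate 2). SSH1, the phosphatase that reactivates cofilin, rose by 0.55, from 2650 and 2547 to 4014 and 3582 counts (adjusted p = 0.00277), so both opposing enzymes were called higher. The formin FMNL2 rose by 0.41 (adjusted p = 0.00652, and 0.0506 without PZT-2 replicate 1). IQGAP3 fell by 0.65 (adjusted p = 0.00691, and 0.0543 without PZT-2 replicate 2). The polarity proteins PARD6A and PARD6B had log2 fold changes of -0.77 and -0.93, PARD6B going from 263 and 259 to 153 and 122 counts. PARD6A, at 49.3 to 106 counts, lost its call without PANC-1 replicate 1 (adjusted p = 0.0662), PZT-2 replicate 1 (adjusted p = 0.176) or PZT-2 replicate 2 (adjusted p = 0.0543).

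Of 12 other activators of ARP2/3 and their partners tested, 5 were called higher and 1 lower, where 14.7% of all genes were called higher and 13.7% lower. WIPF1, the partner that stabilizes WASP proteins, rose from 46.1 and 44.3 to 109 and 107 normalized counts (a log2 change of 1.25 with an adjusted p of 0.00371). The adaptor NCK1 rose from 310 and 289 to 453 and 470 counts (log2 fold change 0.62, chromosome 3 median 0.43). WHAMM, an activator that works on membranes inside the cell, had a log2 change of 0.51 (adjusted p = 0.0119, and 0.0659 without PZT-2 replicate 1 or 0.0810 without PZT-2 replicate 2). WASL, the activator downstream of CDC42, was at 487 and 494 against 382 and 409 counts (adjusted p = 0.0358), and its call was lost without PANC-1 replicate 2 (adjusted p = 0.0607), PZT-2 replicate 1 (adjusted p = 0.183) or PZT-2 replicate 2 (adjusted p = 0.0962).

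ARP2/3 inhibitors and debranching factors gave 5 higher and 2 lower of 10 tested, where 14.7% of all genes were called higher and 13.7% lower. The median log2 fold change of the list was 0.50, against 0.0012 over all genes tested. Whether each gene of the list acts on ARP2/3 in these cells was not tested. The coronins CORO2A and CORO7 rose by 1.36 and 0.76, CORO2A from 41.6 and 37.0 to 110 and 91.9 normalized counts and CORO7 from 251 and 234 to 392 and 426. CORO2B was at 43.9 and 33.4 against 74.4 and 89.9 counts (adjusted p = 0.0171, and 0.111 without PZT-2 replicate 2). CORO1B, which takes part in removing branches, had a log2 change of -0.24 (adjusted p = 0.0227, and 0.150 without PZT-2 replicate 1 or 0.120 without PZT-2 replicate 2). PICK1, an inhibitor of ARP2/3, had one of -0.40 (adjusted p = 0.0354), and its call was lost without PANC-1 replicate 1 (adjusted p = 0.0859), PZT-2 replicate 1 (adjusted p = 0.137) or PZT-2 replicate 2 (adjusted p = 0.163).

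Actin itself and the proteins that hold or cap it gave 4 higher and 6 lower of 22 tested. These are 18.2% and 27.3%, where 14.7% of all genes were called higher and 13.7% lower. ACTB, cytoplasmic beta-actin, was at 87512 and 84392 normalized counts in PANC-1 and at 60400 and 60289 in PZT-2 (a log2 change of -0.51 with an adjusted p of 3.78e-04). TMSB4X, which stores actin monomers, fell by 0.64 from 14295 and 14077 to 9325 and 8909 counts, beside a chromosome X median of -0.29. Its relative TMSB10 rose by 0.48 from 15733 and 13780 to 20723 and 20419 counts. Of the monomer-binding proteins, PFN2 rose by 0.49 and TWF2 by 0.66, both on chromosome 3 with its median of 0.43. DIAPH2, a formin on chromosome X, fell by 0.68 from 244 and 248 to 164 and 144 counts (adjusted p = 0.00822, and 0.0677 without PZT-2 replicate 2).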

How the data were processed

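The 4 libraries were stranded mRNA libraries read from both ends over 76 bases. The authors used Trim Galore 0.4.1 for trimming, kallisto 0.43.0 with RefSeq transcripts for quantification and sleuth 0.29.0 to compare the lines, and the submitters' processing notes list hg19. The deposited estimated counts carried 1 scaling factor per library (1.16 and 0.935 for PANC-1, 1.03 and 1.01 for PZT-2), undone here before rounding: 48.9% to 49.8% of low values of genes with 1 transcript were then whole to within 0.01, against 0.635% to 2.71% as deposited. The deposited TPM values were treated as a score of level per length, since each library carried a factor there too and summed to between 940619 and 1000097. The table of sleuth also holds p-values, q-values and effects from the authors' own test, which were not used. Other libraries of the study, from PSCR cells, are not analysed here.

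Counts were summed per gene by the deposited symbol, or through the transcript's RefSeq record (GRCh38.p14, names and chromosomes only) for 3925 transcripts without one. Unnamed transcripts (103) held 0.0466% of the counts. Genes reaching 5 counts in 2 or more libraries were tested with edgeR 4.0.16 (TMM, quasi-likelihood, R 4.3.3) with a threshold of 0.05 after Benjamini-Hochberg adjustment over all genes, and transcripts likewise. Scripts were tested on simulated data. The members and lists were chosen with earlier results of these data known. Named were all members, all other WAVE and ARP2/3 genes, H2AFZ and H2AFV, and in each other list up to 3 called genes in each direction with the largest change, a mean of at least 50 normalized counts and no overlap between the lines. RAC3 and DOCK10 were added after their values were seen. Results for 1 of the 9 lists are not reported here, though its genes remain in the counts over all lists. Alternatives were RLE factors, DESeq2 1.42.0, 2 other count filters, limma-trend (limma 3.58.1) on log2(TPM + 1) and log2(TPM + 0.1), a block for the replicate number, leaving out each library, counts as deposited, length-scaled counts and the most abundant transcript of each gene. Leaving out a library assumes that the lone library of a line varies like the other pair. Transcripts were run with 5 of these kinds of alternative.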

Additional observations from a re-analysis of the deposited data

How the results depend on the processing

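Of 140 refits of the fold changes of the 10 genes, 132 kept their direction and their side of the threshold, 4 lost a call, 1 gained one and 3 changed sign. The sign changed for WASF1 without PZT-2 replicate 2 (0.0451, with -0.162 the lowest value when 1 library was left out) and for WASF2 without PANC-1 replicate 1 (0.0863, with -0.146 the lowest value likewise) and with the most abundant transcript alone (0.0403), and the cause was not tested. Leaving out 1 library gave 1866 to 4688 called genes in place of 4292, 2 to 5 called genes of the 10 in place of 4, with 0 to 1 lower, and 29 to 73 called pathway genes in place of 63, 21 to 42 higher and 8 to 31 lower. The low ends came without a PZT-2 library. With the most abundant transcript alone, 2132 genes were called, 0 of the 10 as lower, and 36 pathway genes, 20 higher and 16 lower, the cause not tested. Transcripts called among the 27 numbered 0 by edgeR and 8 by DESeq2, and edgeR called 3 of the 20 with at least 10 counts in all 4 libraries. With a replicate block, 3706 genes, 4 of the 10, 54 pathway genes and 0 of the 27 transcripts were called. The other genes named lost calls as follows. WASL, PICK1, PARD6A and ARHGDIA lost theirs under this block (adjusted p 0.0506 to 0.0623), CORO2B, PARD6A, PICK1, WASL and WHAMM under DESeq2 (0.0546 to 0.179) and FARP1, TIAM2 and WASL under limma-trend on TPM (0.0514 to 0.0657). With the most abundant transcript alone 19 lost theirs (0.0533 to 0.470), among them TIAM1, NCK1, CHN1, SH3BP1, ARPC4, ARPC5L and NCKAP1. The replicate numbers of the 2 pairs are not shown to pair the samples (correlation of their deviations -0.0206). Other scalings moved the median over all genes by less than 0.01. ACTR3C and the transcripts with few counts had wide intervals, the cause not tested.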
